A study of Mus musculus with 51 samples.

Results

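The short-range chromatin loops of Dmrt1-null Sertoli cells were the 1668 interactions, of 4291 in the Hi-C interaction list of postnatal day 7 (P7) null Sertoli cells, whose anchor starts lay less than 200 kb apart. Each interaction joined a pair of 10 kb anchors on 1 chromosome, in GRCm38 (mm10) coordinates. The Hi-C libraries, 4 from 2 replicates of P7 Sertoli cells labelled Dmrt1 -/-, were combined by the authors into 1 list. The study's figures give these Hi-C cells as Dmrt1 f/f (floxed) with Dhh-Cre, and its methods add the CAG-Stopflox-tdTomato reporter and the mixed background given below. The list has no score or contact count, so no value below has a spread between Hi-C replicates. The Hi-C protocol label speaks of granulosa cells, whereas the titles, the tissue label and the study's methods name Sertoli cells. Interactions of control cells were not analysed here, so nothing below says whether a loop differed between genotypes. RNA levels came from Sertoli cells at P7: 3 null libraries from Dmrt1 f/f and 3 control libraries from Dmrt1 f/+ males, all with Dhh-Cre, the CAG-Stopflox-tdTomato reporter and a mixed 129Sv and C57Bl/6J background. The controls are titled +/+ but carry 1 floxed allele beside the same reporter and the same Cre, which the Dhh promoter drives in Sertoli cells. Tubules of several mice were digested together and the cells were enriched by depleting other cell types on beads, so the libraries can hold other cells of the tubule. Library totals ran from 5043838 to 8965797 counts. Levels in whole XY gonads are given at the end, for Dmrt1 +/- and -/- at P3 and for +/+, +/- and -/- at P28, with 3 libraries each. Levels are in CPM, the count of a gene relative to its library's total. They are scaled by TMM (trimmed mean of M-values, an edgeR normalization) except in the sums over gene lists, which are unscaled.

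Hi-C ligates DNA ends that lie close together in the fixed nucleus, and an interaction is called where a pair of places is joined more often than their surroundings would give. Many such loops form when the ring-shaped cohesin complex extrudes DNA until it meets the zinc-finger protein CTCF, whose asymmetric motif stops cohesin best when it points into the loop. Other loops join promoters to distal elements. DMRT1 is a DM-domain transcription factor that Sertoli cells, the supporting cells of the testis, need to keep their identity after birth. Without it they change towards granulosa cells, their ovarian counterpart.

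Deletion was seen in the RNA libraries first. Dmrt1 stood at 179, 172 and 270 CPM in the control libraries and at 24.7, 38.2 and 22.2 CPM in the null libraries, a log2 fold change of -2.87 (SE 0.268, adjusted p = 0.00146, edgeR's quasi-likelihood test). The groups did not overlap, and every null library kept some Dmrt1 reads. Markers of Sertoli cells, 34 genes, summed to between 10060 and 11260 CPM in control and between 7502 and 9564 CPM in null libraries, and 1 of 32 tested rose while 9 fell (edgeR). The 9 include Dmrt1 itself, the deleted gene. Rises and falls of markers are calls by the criteria given with the P7 comparison, by which 2.56% of all 14013 genes tested rose and 2.00% fell. Of 22 granulosa cell markers 3 of 15 tested rose, with sums of 911 to 1649 against 1895 to 2923 CPM. The 3 were Foxl2, Foxl2os and Wnt4, at no more than 30.4 CPM in any library. Most of each sum came from Kctd14 and Amhr2, neither of them called. Kctd14 was at 974, 825 and 445 against 2077, 1590 and 1264 CPM (adjusted p = 0.0721, edgeR). Log2 fold changes were below 0 in Esr2, Nr5a2, Fst, Gatm and Runx2, none of them called. Endothelial markers (7 genes) summed to between 13.5 and 15.5 CPM in control and between 31.1 and 50.1 CPM in null libraries, with 1 of 4 tested higher, and 5 erythroid markers to between 1.18 and 6.73 against 6.54 and 35.3 CPM. Germ cell markers (18 genes) ran from 460 to 921 against 257 to 593 CPM, with 4 lower. Stromal (7 genes) sums ran from 33.2 to 223 CPM in control and from 105 to 393 CPM in null libraries, and peritubular myoid (5 genes) sums from 11.4 to 106 and from 12.2 to 36.1 CPM, each highest in replicate 2 of its group, with no gene called by edgeR (2 stromal and 0 myoid genes at an unadjusted p below 0.05, and 1 and 0 called by DESeq2). Leydig cell markers (7 genes) ran from 177 to 283 against 228 to 332 CPM with 1 of 4 higher, and macrophage markers (11 genes) from 7.08 to 11.4 against 7.14 to 10.1 CPM with 0 of 2 tested at an unadjusted p below 0.05 or called by DESeq2, and with Tyrobp at 0 in every library. Over all tested genes of chromosomes 1 to 19 and X, 2998 of 13974 had an unadjusted p below 0.05 (edgeR). The part of these other cells in the results below was not tested.

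The distances of the short loops filled a narrow range. No listed interaction was shorter than 120 kb, and the short loops ran from 120 to 190 kb with a median of 150 kb. The upper edge is the 200 kb limit set here. The sources used here do not say whether shorter distances were left out when interactions were called. Nothing is therefore read from the lower edge. The nearest class, 120 kb, held 381 loops and the farthest, 190 kb, held 133, beside 122 interactions at 200 kb and 124 at 210 kb just outside the limit. Loops at 190 kb and interactions at 200 kb had a gene start at an anchor in 51.9% and 53.3%, and a CTCF core match in 26.8% and 29.1% of their anchors. Of the tested genes that start in those anchors, 6 of 58 at 190 kb and 2 of 41 at 200 kb were called between the genotypes, by the criteria given with the P7 comparison. Over all short-loop anchors the share was 5.59% and over all genes tested 4.56%. The counts of these 2 classes are small and were not tested against each other. The interactions of 200 kb and over numbered 2623, with a median of 340 kb and a maximum of 1890 kb. Short loops thus made up 38.9% of the list.

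**Figure D1:**
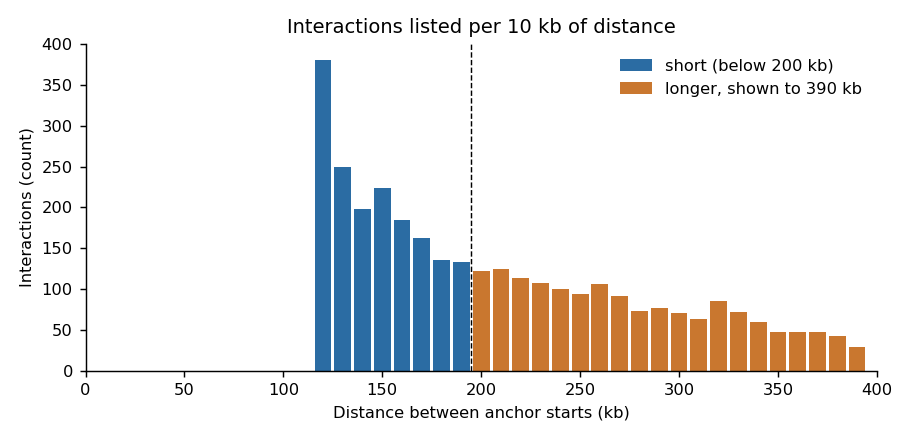
Number of listed interactions (y axis, count) at each distance between anchor starts (x axis, kb), in steps of 10 kb up to 390 kb. Blue bars are the 1668 short loops and orange bars the nearest longer ones, the dashed line marks the limit, and the list begins at 120 kb with its highest bar, 381 interactions.

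The short loops used 3251 distinct anchors, of which 3167 served a single short loop, 83 served 2 and 1 served 3. Anchors were shared with longer interactions in 570 cases, which is 17.5% of the short-loop anchors and 12.5% of the 4544 anchors of longer interactions. Of the short loops, 668 (40.0%) lay within the span of a longer interaction, and 196 (11.8%) overlapped another short loop. Together they spanned 251 Mb, 9.79% of the assembled bases of chromosomes 1 to 19 and X. Their density differed between chromosomes. Chromosome 11 held 109.5 and chromosome 19 held 106.5 short loops per 100 Mb, whereas chromosome 12 held 51.3 and the X chromosome 20.2. The longer interactions were also sparsest on the X, at 27.5 per 100 Mb, and short loops were 42.3% of the X-linked list, so the low density on the X was common to both distance classes. Male cells carry a single X, and the part of this in its low density was not tested.

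At the level of sequence, the anchors stood apart from the genome in CTCF motif and base composition. A match to the core of the CTCF motif (12 letters with ambiguity letters, either strand) lay in 884 of 3251 short-loop anchors (27.2%), in 26.8% of the anchors of longer interactions and in 4.71% of all 255946 bins of 10 kb. The median GC content was 45.9% in short-loop anchors, 44.3% in longer-loop anchors and 41.2% in all bins, and CpG dinucleotides numbered 11.9, 10.8 and 7.2 per kb. Among short-loop anchors without a start site 629 of 2187 (28.8%) held a match, and 255 of 1064 with one, against 4.32% and 6.60% of all such bins. An 8-letter core of the DMRT1 motif, TACATTGT on either strand, lay in 34.3% of short-loop anchors, 33.9% of longer-loop anchors and 37.1% of all bins. A match is a description of the letters and does not show that the factor binds. These shares have no test, since anchors share loops and neighbouring bins share sequence.

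**Figure D2:**
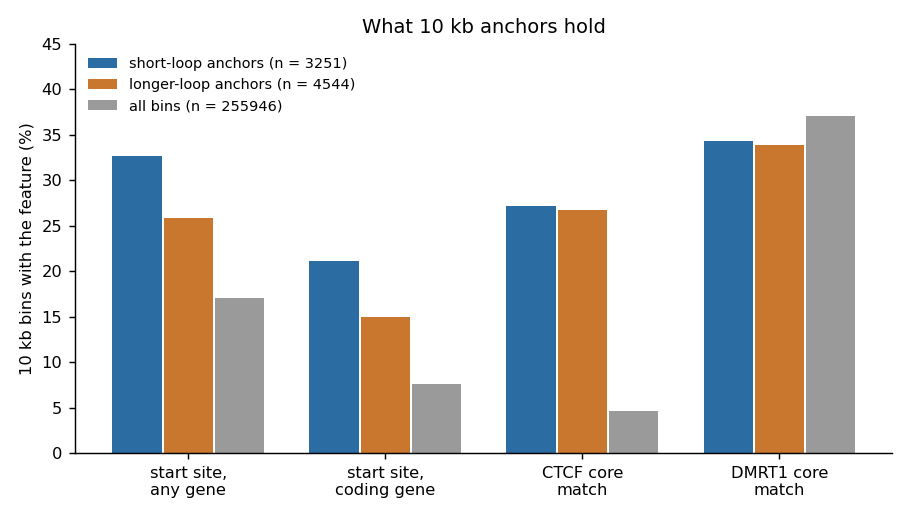
Share of 10 kb bins (y axis, %) that hold the 5′ end of any gene, the 5′ end of a protein-coding gene, a CTCF core match or the 8-letter DMRT1 core, for short-loop anchors (blue), longer-loop anchors (orange) and all bins of chromosomes 1 to 19 and X (grey). CTCF core matches lie in 27.2% and 26.8% of the anchors against 4.71% of all bins, and the DMRT1 core lies in a slightly smaller share of anchors than of bins.

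Matches were placed by direction too. Both anchors held a CTCF core match in 133 short loops (7.97%), 1 anchor did in 649 (38.9%) and neither in 886 (53.1%). In 118 of the 133 loops each anchor had matches on 1 strand only, and of these 87 (73.7%, 95% Wilson interval 65.1% to 80.8%, counting error only) were convergent, with both motifs pointing into the loop, 27 were tandem (14 on the plus and 13 on the minus strand) and 4 were divergent. Longer interactions gave 147 of 206 convergent (71.4%, 64.8% to 77.1%), an interval that overlaps that of the short loops. A single anchor carried direction as well: of 415 left anchors with matches on 1 strand, 353 (85.1%) had them on the plus strand, which points into the loop from the left, and of 458 right anchors 372 (81.2%) had them on the minus strand. With a shorter core that leaves 4 letters free, 37.8% of all bins matched and the convergent share was 44.9%, so these shares belong to the stricter motif.

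**Figure D3:**
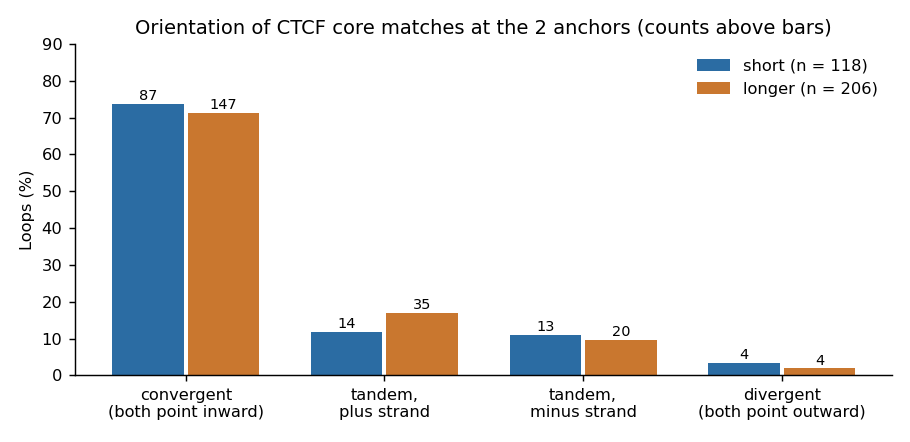
Orientation of the CTCF core matches in loops whose anchors each hold matches on 1 strand only, as a share of such loops (y axis, %), for 118 short (blue) and 206 longer interactions (orange), with counts above the bars. The convergent class holds 87 short and 147 longer interactions, and the divergent class holds 4 of each.

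The sequences behind these counts are shown for loops that hold genes described below, because they let the direction be read off the letters. All are on the plus strand of GRCm38 (RefSeq), 40 bases each, with the core match in capitals, so a motif that begins with CCA runs to the right and one that ends with TGG runs to the left. None of the 30 loops with an anchor at a named called, listed or paired gene had a match at both anchors, and 13 had a match at 1 anchor, pointing into the loop in 11. The first 6 sequences therefore come from loops around called genes, chosen after their values were seen: Podxl and Mirt1 lay in convergent loops (chr6:31525664-31525703 and chr6:31642478-31642517, chr19:53394770-53394809 and chr19:53579100-53579139), Fam167a in a divergent one (chr14:63372672-63372711 and chr14:63535913-63535952). The next 6 are matches in loops with a called gene at an anchor and a match at 1 anchor only, in the anchor opposite Islr2 (chr9:58053246-58053285), Clu (chr14:65845450-65845489 and chr14:65847611-65847650) and Clec12b (chr6:129518197-129518236), and in the same anchor as Tppp3 (chr8:105477239-105477278) and Gna14 (chr19:16433777-16433816), the last of which points out of its loop.
Podxl loop, left anchor: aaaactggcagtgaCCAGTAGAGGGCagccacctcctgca
Podxl loop, right anchor: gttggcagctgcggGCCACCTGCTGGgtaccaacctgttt
Mirt1 loop, left anchor: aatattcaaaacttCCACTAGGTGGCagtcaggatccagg
Mirt1 loop, right anchor: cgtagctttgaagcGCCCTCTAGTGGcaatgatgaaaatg
Fam167a loop, left anchor: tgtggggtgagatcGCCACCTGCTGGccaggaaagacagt
Fam167a loop, right anchor: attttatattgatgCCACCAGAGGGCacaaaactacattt
Islr2 loop, left anchor: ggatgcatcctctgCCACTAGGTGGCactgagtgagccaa
Clu loop, left anchor, match nearer the loop's outer end: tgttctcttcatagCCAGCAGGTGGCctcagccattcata
Clu loop, left anchor, match nearer the loop's inside: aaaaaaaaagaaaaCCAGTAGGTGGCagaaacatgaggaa
Clec12b loop, right anchor: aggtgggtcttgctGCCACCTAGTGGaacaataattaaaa
Tppp3 loop, right anchor: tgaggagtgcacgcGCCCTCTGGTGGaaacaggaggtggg
Gna14 loop, left anchor: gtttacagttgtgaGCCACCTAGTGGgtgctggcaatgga

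Gene starts were frequent at the anchors. The 5′ end of a gene lay in 32.7% of short-loop anchors, 25.9% of longer-loop anchors and 17.1% of all bins, and that of a protein-coding gene in 21.1%, 14.9% and 7.60%. Per loop, 195 of the 1668 short loops (11.7%) had a start site at both anchors, 709 (42.5%) at 1 and 764 (45.8%) at neither, so 54.2% touched a gene start (51.8% to 56.6%), beside 45.0% (43.1% to 46.9%) of longer interactions. The protein-coding starts were almost evenly divided by direction, 404 of 777 (52.0%) reading into the loop. A median of 3 genes, 1 of them protein-coding, began inside a loop, and 103 loops (6.17%) held none. In 160 loops (9.59%) the body of 1 protein-coding gene reached both anchors, and 13 loops joined the first and the last bin of 1 protein-coding gene.

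In all, 1407 genes had their 5′ end in a short-loop anchor, 789 of them protein-coding, and a further 6108 had it inside a short loop. The anchor genes were transcribed more often and at a higher level per length than genes at large. Of the protein-coding anchor genes 618 (78.3%) passed the filter on low counts, against 65.3% of those inside loops, 72.2% at the anchors of longer interactions and 56.8% of all protein-coding genes. The median level of protein-coding genes in control libraries, in CPM per kb of exon, was 4.40 at short-loop anchors, 2.40 inside short loops, 3.05 at longer-loop anchors and 1.20 over all. In null libraries these medians were 4.42, 2.38, 3.64 and 1.19, so the order was the same in both genotypes.

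The 8 anchor genes with the highest level per length in control cells were Rpl36 and Rpl8, which encode proteins of the large ribosomal subunit, Rhob, a small GTPase, Fos and Ier3, immediate early genes, Clu, the secreted chaperone clusterin that Sertoli cells make in quantity, Nudt4, a phosphatase of inositol pyrophosphates, and Calm2, a calmodulin gene. Their control means ran from 250.5 CPM per kb for Calm2 to 723 CPM per kb for Rpl36. Of the 8, only Clu passed the test between genotypes. Rpl36 and Rpl8 were at 277 ± 25.5 and 959 ± 81.5 CPM in control and at 171 ± 47.2 and 686 ± 123 CPM in null libraries (SD, n = 3), without overlap of the groups but with adjusted p of 0.0954 and 0.183 (edgeR).

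Between the genotypes at P7, 38 of the 680 tested anchor genes were called, with an adjusted p below 0.05 and a change of over 2-fold: 26 rose in null cells and 12 fell. That is 5.59%, against 4.56% of all 14013 genes tested, where 2.56% rose and 2.00% fell. Inside the loops 115 of 2074 tested genes were called (5.54%), 62 higher and 53 lower, and at the anchors of longer interactions 46 of 609 (7.55%). The median log2 fold change was 0.06 at short-loop anchors, -0.01 inside the loops and -0.01 over all genes. The shares at short-loop anchors and inside the loops lie near the background, and nothing particular to the short loops is read from them. In cell preparations such as these, fewer cells of a type and less RNA per cell cannot be told apart. Leaving out null replicate 3 or control replicate 3 left 18 called anchor genes in each case, and leaving out control replicate 2 gave 54.

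**Figure D4:**
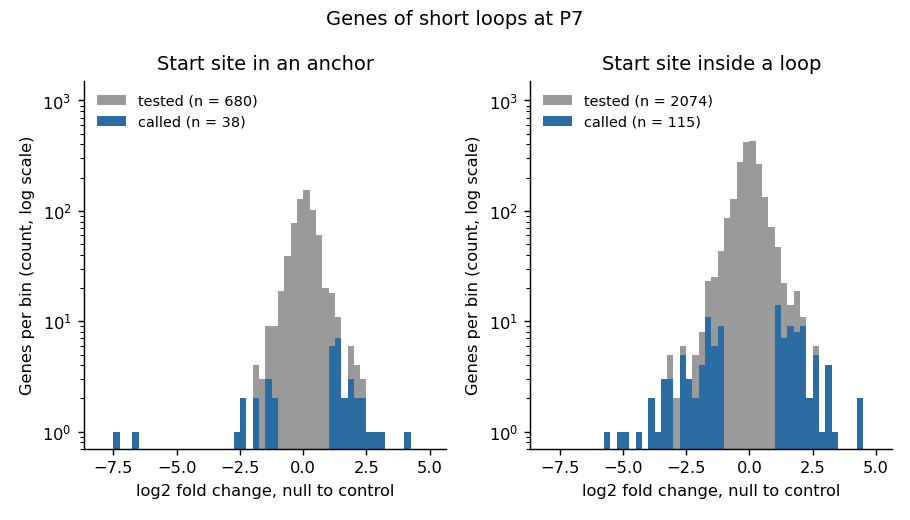
Histograms of the log2 fold change of null to control at P7 (x axis) against the number of genes per bin (y axis, log scale) for the 680 tested genes that start in a short-loop anchor (left) and the 2074 that start inside a loop (right). Called genes, in blue, number 38 and 115, and both histograms are centred near 0.

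The steepest falls were at loops on chromosomes 9 and 6. Islr2, a leucine-rich repeat membrane protein known from axon guidance, was at 45.0, 88.0 and 117 CPM in control libraries and at 0.438, 0.590 and 0.411 CPM in null libraries, a log2 fold change of -7.41 (SE 0.490, adjusted p = 0.000499, edgeR). Clec12b, an inhibitory C-type lectin receptor, was at 94.8, 62.6 and 142 CPM and at 0.109, 1.38 and 2.06 CPM, a change of -6.61 (SE 0.619, adjusted p = 0.00146). In both genes every null library was far below every control library. The groups were apart in all 38 called anchor genes, which their choice by the test favours, so such gaps add no further support. Islr2 began at the right anchor of a 150 kb loop (chr9:58050001-58210000), together with its paralogue Islr. Clec12b began at the left anchor of a 130 kb loop (chr6:129380001-129520000) whose interior held 4 other receptor genes of the C-type lectin family, Clec1b, Clec9a, Clec1a and Olr1, and whose right anchor held Tmem52b.

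The other named anchor genes that fell differed in function. Slc52a3, a riboflavin transporter, stood at 130, 112 and 145 CPM in control and at 15.2, 20.1 and 30.0 CPM in null libraries (log2 fold change -2.58, SE 0.256, adjusted p = 0.00160, edgeR). Clu stood at 1435, 996 and 1149 CPM against 490, 347 and 463 CPM (-1.46, SE 0.213, adjusted p = 0.00777), the only one of the 34 Sertoli cell markers with its start in a short-loop anchor. In neither gene did the groups overlap. Gna14, a G protein alpha subunit, and Mxd1, a partner of MAX that opposes MYC, fell with log2 fold changes of -2.27 and -1.43 and calls that held without any 1 library. Eppin, a protease inhibitor of the sperm surface, Mex3b, an RNA-binding protein, and Stk10, a protein kinase, fell with log2 fold changes of -1.91, -1.31 and -1.20. St8sia1, the synthase of ganglioside GD3, fell from 43.7 ± 3.53 to 21.9 ± 3.75 CPM (SD, n = 3), just past the 2-fold limit. Those 4 calls were fragile. Eppin was called only when control replicate 2 was the library left out, with adjusted p from 0.0566 to 0.0972 without any other one. Mex3b lost its call without null replicates 1, 2 or 3 or control replicate 3 (adjusted p 0.0574, 0.0733, 0.0702 and 0.0737). Stk10 lost it in the same 4 fits, in 1 of them by size alone (log2 fold change -0.997 without null replicate 1). St8sia1 kept its call only without null replicate 3.

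Among anchor genes that rose, Prox1, a homeobox factor of lymphatic endothelium and other lineages, changed most. It was at 0.715, 3.02 and 0.576 CPM in control and at 19.3, 17.3 and 31.9 CPM in null libraries (log2 fold change 4.05, SE 0.584, adjusted p = 0.00741, edgeR). Its start, with that of the antisense gene Prox1os, filled the right anchor of a 130 kb loop (chr1:190040001-190180000). Neto2, an auxiliary subunit of kainate receptors, was at 27.8, 26.1 and 26.6 CPM against 112, 197 and 110 CPM (2.37, SE 0.247, adjusted p = 0.00189). Sema5a, a semaphorin guidance protein, was at 106, 107 and 89.3 CPM against 295, 287 and 461 CPM (1.78, SE 0.217, adjusted p = 0.00359). The groups were apart in all 3 genes. None of these 3 loops had a protein-coding start inside or any gene start at the opposite anchor.

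Of the remaining named genes that rose, Ltbp1, which stores latent TGF-beta in the matrix, went from 15.6 ± 9.51 to 103.5 ± 32.6 CPM (SD, n = 3). Pcsk6, a proprotein convertase, rose from 20.9 ± 15.4 to 95.1 ± 20.3 CPM, and Cemip, which takes part in breaking down hyaluronan, from 11.6 ± 4.06 to 53.0 ± 11.9 CPM. Cemip was the centre of 2 adjoining loops of 170 and 180 kb that met in the anchor with its start. Srgap1, a GTPase-activating protein of the Slit-Robo pathway, Tppp3, a tubulin-binding protein, and Ptgs2, the inducible cyclooxygenase, rose by 2.76, 2.30 and 3.01 on the log2 scale. Speg, a muscle kinase, Pgbd5, a protein derived from a transposase, and Ston2, an endocytic adaptor, rose by 1.94, 1.91 and 1.70. Without null replicate 3, the calls of Ltbp1, Pcsk6, Ptgs2, Speg and Ston2 were lost (adjusted p 0.0580, 0.106, 0.0535, 0.0989 and 0.0573), and without control replicate 3 those of Pcsk6, Ptgs2, Speg and Pgbd5 (0.0675, 0.0514, 0.0514 and 0.0506). Pcsk6 also lost its call without null replicate 2 or control replicate 1 (0.0778 and 0.0857), and Speg without control replicate 1 (0.0571). The other called anchor genes, 14 higher and 2 lower, had log2 fold changes of 1.01 (Smad1, a BMP signal transducer) to 1.52 (Rab32, a GTPase) and of -2.33 and -1.89 (the predicted genes Gm44770 and Gm44292).

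**Figure D5:**
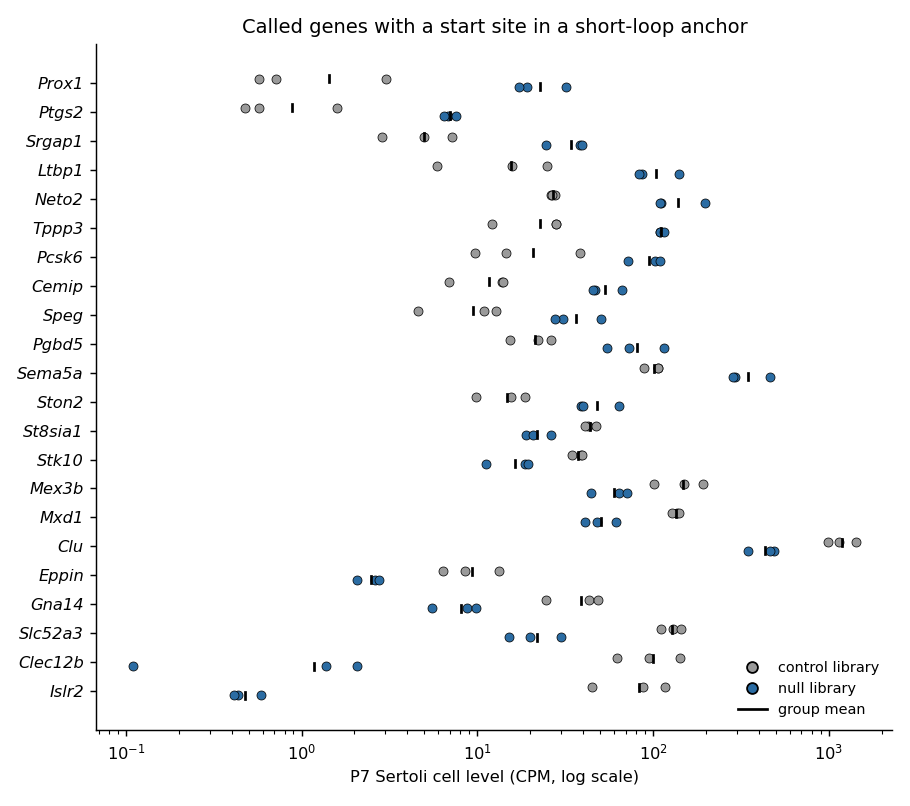
P7 level (x axis, CPM, log scale) of the 22 named genes called between the genotypes that start in a short-loop anchor (y axis, ordered by log2 fold change). Grey circles are the 3 control libraries, blue circles the 3 null libraries and bars the group means. In every gene shown the groups are apart, by most in Islr2 and Clec12b, which the choice of called genes favours.

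Inside the loops, only genes whose mean level reached 5 CPM were ranked, with predicted genes and clone names left out. Those that fell most were Slc47a2, an exporter of organic cations, Stra6, the receptor for retinol-binding protein, Scara3, a scavenger receptor, Sfn, the 14-3-3 sigma protein, Cst9, a cystatin of Sertoli cells, and Tgfbi, a matrix protein. Stra6 was at 16.1, 8.18 and 35.7 CPM in control and at 0.657, 0.590 and 0.617 CPM in null libraries, and Scara3 at 46.3, 18.3 and 58.2 against 1.20, 1.57 and 3.70 CPM. Their log2 fold changes were -4.96 (SE 0.633) and -4.31 (SE 0.550), with adjusted p of 0.00427 for both (edgeR). The log2 fold changes of the others were -5.55 (Slc47a2), -3.89 (Sfn), -3.72 (Cst9) and -3.41 (Tgfbi). Highest among those that rose, under the same limit, was Inpp5j, an inositol polyphosphate phosphatase, at 2.38, 1.25 and 0.720 CPM in control and 39.4, 19.3 and 37.8 CPM in null libraries (4.42, SE 0.464, adjusted p = 0.00195). Podxl, the sialomucin podocalyxin of podocytes and endothelium, followed at 25.4, 6.58 and 15.3 against 192, 82.6 and 151 CPM (3.15, SE 0.473, adjusted p = 0.00824). Mirt1, a non-coding RNA gene, Thsd1, a membrane protein of vessels, Agt, the precursor of angiotensin, and Fam167a rose by 3.50, 3.09, 3.02 and 2.53. Of these 12 genes, Mirt1 lost its call without null replicate 3 (adjusted p 0.0514) and Fam167a without null replicates 2 or 3 or control replicates 1 or 3 (0.0735, 0.102, 0.0897 and 0.0884). The count inside the loops ran from 45 called genes without null replicate 3 to 187 without control replicate 2, with 55, 66 and 70 without control replicates 3 and 1 and null replicate 2.

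The cystatin loop on chromosome 2 (chr2:148750001-148910000) enclosed 3 genes whose region the study examined. Cst9 was at 372, 228 and 221 CPM in control and at 34.8, 14.6 and 11.7 CPM in null libraries (log2 fold change -3.72, SE 0.425, adjusted p = 0.00279, edgeR). Cst12 in the same loop was at 292, 74.5 and 76.3 CPM against 265, 47.0 and 39.5 CPM (-0.32, SE 0.779, adjusted p = 0.844), and Cstdc1 at 17.4, 4.62 and 7.34 against 8.21, 2.75 and 1.44 CPM (-1.19, SE 0.668, adjusted p = 0.346). Only the groups of Cst9 were apart, and all 3 genes were highest in replicate 1 of each genotype. These are members of 1 gene family in a cluster, so reads of close copies could have been divided between them. The left anchor of the loop held the start of Cstl1, another cystatin-like gene, and 8 protein-coding genes began inside. Ocln, the tight junction protein occludin, had neither its start nor its body in a short-loop anchor and lay inside no short loop.

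Of the 34 Sertoli cell markers, 12 (35.3%) started inside a short loop, beside 13.0% of all protein-coding genes, and the 3 cystatin genes shared a single loop. Cst9 and Aard, a gene strongly expressed in Sertoli cells, fell (Aard from 1779, 1677 and 1524 to 513, 495 and 527 CPM, log2 fold change -1.70, adjusted p = 0.00160, edgeR), and Krt18, a keratin, rose (1.40, adjusted p = 0.0498). The transcription factors Gata4 (0.68, adjusted p = 0.168) and Sox8 (0.31, adjusted p = 0.262), the hormone genes Amh (0.07, adjusted p = 0.920) and Inha (0.30, adjusted p = 0.522) and the ligand Dhh (-0.27, adjusted p = 0.473) did not pass the test. Amh, anti-Müllerian hormone, stood at 582, 1012 and 562 CPM in control and at 533, 649 and 1084 CPM in null libraries, with overlap.

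Of the markers of other cells, 2 of 18 from the germ cell list and 2 of 11 from the macrophage list started in a short-loop anchor, and none from the granulosa, Leydig, myoid, stromal, endothelial and erythroid lists. From the germ cell list, Stra8, which licenses meiosis, was at 5.72, 2.67 and 3.46 CPM in control and 4.81, 4.33 and 1.65 CPM in null libraries (adjusted p = 0.905), and Nanos3, a germ cell survival factor, at 10.3, 4.80 and 13.7 against 2.41, 4.53 and 2.26 CPM (adjusted p = 0.0789, edgeR). The complement genes C1qa and C1qc, made by macrophages, shared the left anchor of a 180 kb loop (chr4:136890001-137080000) although the cells held nearly none of their RNA. C1qa had 0 counts over the control libraries and 12 over the null libraries, at least 4.39-fold higher against a floor of 3 counts over the group. C1qc had 1 and 6 counts, a ratio of 6.59 with a 95% interval of 0.799 to 303 for counting error. Neither passed the filter on low counts. From the endothelial list, Pecam1, Cdh5 and Esam started inside short loops. Pecam1, an adhesion molecule of endothelium, rose from 5.25, 6.05 and 3.60 to 16.4, 17.5 and 16.9 CPM (log2 fold change 1.77, adjusted p = 0.00995, edgeR).

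Developmental transcription factors of the families searched by symbol numbered 189, of which 6 (3.17%) started in a short-loop anchor, beside 3.63% of all protein-coding genes. Sox12 was at 157, 174 and 195 CPM in control and 127, 158 and 247 CPM in null libraries, and Gata6, a partner of GATA4 in the gonad, at 89.4, 106 and 78.5 against 86.4, 78.3 and 136 CPM, with adjusted p of 0.978 and 0.777 (edgeR). Pax2, a factor of the urogenital ducts and kidney, was at 5.13, 5.69 and 3.89 against 0.875, 0.787 and 2.47 CPM, apart but with an adjusted p of 0.0626. Lhx9, a LIM factor of the early gonad, was at 0, 2.31 and 0.144 against 2.30, 6.89 and 1.65 CPM (adjusted p = 0.270). Foxi3 and Foxd1 did not reach 1 CPM in any library.

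The RNA of the loop-forming proteins was not called in either direction. Of 23 genes for CTCF, cohesin and its regulators, 21 were tested and none passed with edgeR or DESeq2. An unadjusted p below 0.05 (edgeR) was found for 5, beside 2998 of 13974 tested genes on chromosomes 1 to 19 and X. The unscaled sum of the 23 genes ran from 2266 to 2434 CPM in control and from 2297 to 2539 CPM in null libraries. Ctcf was at 137, 127 and 116 CPM in control and 142, 148 and 143 CPM in null libraries (log2 fold change 0.19, SE 0.134, adjusted p = 0.466, edgeR). Rad21, the cohesin kleisin, was at 367, 361 and 334 against 278, 304 and 255 CPM (-0.34, SE 0.145, adjusted p = 0.217). Nipbl, which loads cohesin, itself began at the left anchor of a 130 kb loop and was at 57.7, 122 and 124 against 180, 159 and 148 CPM (0.68, SE 0.273, adjusted p = 0.195). The groups of all 3 were apart without reaching the threshold, as were those of Pds5b and Hdac8 (higher in null libraries) and Cdca5 (lower). Those of the other machinery genes overlapped. The share of all genes with groups apart was not counted, so nothing is read from these gaps. Stag1, Wapl, Cdca5 and Maz started inside short loops, with adjusted p of 0.990, 0.530, 0.203 and 0.698.

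Loops that joined a pair of tested protein-coding starts were few, 75 loops with 98 gene pairs. In none were both genes called by edgeR or by DESeq2. In 4 pairs both had an unadjusted p below 0.05 (edgeR), which 2998 of 13974 tested genes on chromosomes 1 to 19 and X reached singly. In 4 pairs 1 gene was called. Ssr3, of the translocon, and Tiparp, an ADP-ribosyltransferase induced by the aryl hydrocarbon receptor, lay at the ends of a 130 kb loop on chromosome 3 with log2 fold changes of 0.19 (adjusted p = 0.614) and 1.18 (adjusted p = 0.0445, edgeR). Endod1 (1.37, adjusted p = 0.0214) faced both Kdm4d (-0.21) and Cwc15 (0.21), which share an anchor, and Riox2 (-0.19) faced Crybg3 (1.34, adjusted p = 0.00396). Over the 98 pairs the signs of the log2 fold changes matched in 47 (48.0%), and Pearson's r was -0.023 and Spearman's rho -0.058, as a description across 170 genes that share libraries and, in part, loops.

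Several loops held more than 1 called gene. Of the 1668 short loops, 146 (8.75%) had a called gene at an anchor or inside, and 17 had 2 or more: all lower in 10, all higher in 5 and of both directions in 2. Some loops overlap, so Mxd1 with Gm44292 (lower) and Speg with Asic4 (both directions) were each counted in 2 loops. Islr2 at an anchor and Stra6 inside the same loop both fell, as did Clu and Scara3 (chr14:65840001-65970000), and Eppin with Wfdc8 and Wfdc10 of the same whey-acidic protein cluster (chr2:164590001-164730000). Pgbd5 and Agt (chr8:124430001-124580000), Vps36 and Thsd1, Mirt1 and Dusp5, Krt8 and Krt18, and Peg3 and Usp29, an imprinted neighbour pair, rose together. Speg rose and Asic4, an ion channel gene, fell inside 1 pair of overlapping loops. Counted as pairs, 18 of 19 called pairs within a short loop changed in 1 direction (94.7%), beside 66 of 83 called pairs (79.5%) less than 200 kb apart anywhere, which include those 19, so neighbours outside the loops often changed together too.

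Promoters of the called anchor genes did not hold the 8-letter DMRT1 core: 0 of the 31 with a RefSeq promoter window (GRCm38.p6, 250 bases before to 50 after the start) had TACATTGT on either strand, beside 220 of 32851 windows (0.670%). At that share of windows, 0 of 31 says only that these letters were not in these windows.

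Levels of some of the named genes in whole gonads of other ages follow, without a test. Islr2 was at 41.0, 61.1 and 68.5 CPM in P3 Dmrt1 +/- gonads and at 2.74, 3.16 and 6.39 CPM in P3 Dmrt1 -/- gonads, and at 11.3, 14.4 and 8.27 CPM in P28 Dmrt1 +/+ against 0.543, 0.0990 and 0.645 CPM in P28 Dmrt1 -/- gonads. Clec12b, at 18.2, 17.1 and 14.5 against 0.249, 0.526 and 0.343 CPM at P3, and at 30.8, 22.7 and 24.3 against 0.217, 0.594 and 0.565 CPM at P28, gave the same picture. Both genes were lower in every null gonad than in every other gonad shown. Slc52a3, at 46.9, 37.5 and 65.1 against 6.10, 12.4 and 4.57 CPM at P3 and at 59.1, 64.1 and 57.1 against 13.5, 18.8 and 14.3 CPM at P28, was also lower in every null gonad. Direction differed between ages in several genes, among them Neto2, Gna14, Clu and Cemip. Neto2, higher in null cells at P7, was at 32.7, 30.1 and 36.1 CPM in heterozygous and 81.25, 97.07 and 97.15 CPM in null gonads at P3. At P28 it was at 13.7, 14.2 and 15.4 CPM in wild-type and 9.56, 10.7 and 10.2 CPM in null gonads. Gna14, lower in null cells at P7, overlapped at P3. At P28 it was at 16.7, 9.16 and 10.5 CPM in wild-type and 26.9, 34.6 and 28.8 CPM in null gonads. Clu was at 1101, 477 and 793 CPM in heterozygous and 752, 729 and 656 CPM in null gonads at P3, with overlap, and at 400, 429 and 318 CPM in wild-type and 802, 793 and 842 CPM in null gonads at P28. The P28 heterozygous gonads, at 433, 554 and 822 CPM, overlapped the null ones. Cemip was at 9.29, 11.6 and 12.1 against 24.1, 20.1 and 33.1 CPM at P3 but at 34.0, 52.1 and 32.8 against 4.02, 2.18 and 2.50 CPM at P28, with 26.2, 33.6 and 24.1 CPM in P28 heterozygous gonads. Ltbp1 was higher in null gonads at both ages, at 26.9, 45.8 and 34.8 against 82.4, 70.1 and 79.9 CPM at P3 and at 19.4, 11.1 and 14.5 against 72.7, 78.3 and 99.3 CPM at P28. Whole gonads differ from the P7 preparations in their mix of cells. They differ in genotype too: the paper describes null gonads as homozygous for a null mutation, whereas the P7 null cells were Dmrt1 f/f with Dhh-Cre.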

How the data were processed

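RNA of P7 Sertoli cells and of whole gonads at P3 and P28 was sequenced (stranded, polyA), and P7 null Sertoli cells were analysed by Hi-C. Per the labels and methods, the authors trimmed reads (Trim Galore 0.6.0, cutadapt 1.18), mapped RNA with STAR 2.7.2a and Hi-C with HiC-Pro (3.1.0 in the submitters' notes; the methods give another version) to GRCm38, and deposited whole-number counts per gene and 1 pooled list of interactions called at 10 kb. Here counts were tested with edgeR 4.0.16 (filterByExpr, TMM, quasi-likelihood, Benjamini-Hochberg; 3 null against 3 control libraries; DESeq2 1.42.0 as an alternative), and a gene was called at an adjusted p below 0.05 and over 2-fold. Nothing says whether libraries came from separate animals, so p-values may measure technical spread only. Gene starts are GENCODE M21 (99.5% of 55401 identifiers matched; counting by the authors used a later release), and bins with 5000 or more unread bases were left out. Levels per length use exon bases of M21. Intervals and floors cover counting error only. All columns of the count table were mapped to samples. The loops, lists and genes were chosen with earlier results of these data known. Named were called anchor genes (at most 12 per direction; predicted genes passed over), 6 per direction inside loops with a mean of at least 5 CPM, the 8 highest anchor genes per length, listed markers, developmental factors and loop machinery at anchors, joined pairs with a called gene, and 4 genes whose regions the study examined. Other genes named beside them share their loops and were picked after values were seen.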

Additional observations from a re-analysis of the deposited data

How the results depend on the processing

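Calls over all genes, at anchors and inside loops stayed within 1.5 times of 639, 38 and 115 with other size factors, with library size only and with adjusted p alone. DESeq2 called 961 over all and 178 inside. With no filter on low counts the numbers were 1356 of 30703, 62 of 1116 and 229 of 4302 genes. Leaving out 1 library gave 279 (without null replicate 3) to 989 (without control replicate 2) over all genes, with 307, 412 and 414 without control replicate 3, null replicate 2 and control replicate 1, 18 to 54 at anchors and 45 to 187 inside. With loops below 150 kb there were 20 called of 377 tested anchor genes and 57 of 1061 inside, since fewer loops enter. Gene bodies in place of starts gave 103 of 1858 tested anchor genes and anchors widened by 10 kb gave 79 of 1456, beside 38 of 680. Any transcript start, a choice made after seeing the data, gave 53 of 1015. These counts grew with the number of genes tested. The share of loops with a start site, 54.2%, was 36.3% for protein-coding genes, 95.1% for gene bodies and 84.8% for widened anchors. These count a hit at either anchor of a loop, whereas 57.8% of single bins hold a gene body and 39.6% of single widened bins a start site. The share of anchors with a CTCF match was 70.2% with the shorter core and 41.6% for widened anchors (13.0% of all bins), and the convergent share 44.9% with the shorter core. Other distance limits kept these shares within their intervals. With the replicate number as a replicate block, 635 genes were called over all and 34 at anchors. Same-numbered libraries deviated together in part (correlations 0.506, 0.227 and -0.0361, with 2 of 3 null libraries correlating best with their own number). The labels do not say whether they share more than a number. No sign of a named gene reversed. Of 34 named calls, 1 was lost under DESeq2, 1 under other size factors and 1 under the block (St8sia1, St8sia1 and Speg). Absence of scores in the interaction list limits what can be said of single loops.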
